A study of Mus musculus with 28 samples.

Results

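The genes described here are the 10 genes Msx1, Msx2, Tfap2a, Tfap2b, Foxd3, Ets1, Snai1, Snai2, Twist1 and Ngfr, which are commonly used as specifiers or markers of the neural crest. They were taken by name from the deposited count matrix, where all 10 had a row among 28244 genes, and they were followed through all 28 libraries of 11 groups. The neural crest arises at the border of the neural plate, where BMP and Wnt signals switch on border factors such as Msx1, Msx2 and the AP-2 proteins Tfap2a and Tfap2b. Specifier factors such as Foxd3 and Ets1 follow, and Snai1, Snai2 and Twist1 repress cell adhesion genes so that the cells can leave the epithelium. Migrating crest cells carry Ngfr, the low-affinity neurotrophin receptor p75, on their surface, and they give rise to sensory and autonomic neurons, Schwann cells, pigment cells and facial mesenchyme. Most of these genes also act outside the crest, for example in skin, limb mesenchyme, endothelium or lymphocytes, so that none of them marks crest cells alone.

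The study asked whether neural stem cells (NSCs) exist outside the central nervous system of the mouse, and whether the peripheral NSCs (pNSCs) that it derived in culture are separate from neural crest stem cells (NCSCs). All libraries were polyA RNA-seq from cells whose strain is labelled C57BL/6. The methods describe wild-type mice of CD1 or CD1/C3H background, and the study's reporting summary states that most brain NSCs shared their donor mice with the pNSCs, without naming the mice of each line. pNSC lines came from single clusters picked by hand and grown in NSC medium with EGF and bFGF, so that a group may represent 1 clone. The Nes-GFP experiment, in which GFP marks cells with nestin promoter activity, had 2 libraries each of pNSCs from GFP+ cells of postnatal tail, pNSCs from GFP+ cells of adult lung, brain NSCs, tail cells and lung cells, whose labels give only the tissue and the cell type. Whether the tail and lung cells had been cultured was not given in the labels. The Sox2-GFP experiment, in which GFP was knocked in at Sox2, had 3 libraries each of postnatal lung pNSCs and brain NSCs, and it used the same 2 lung cell libraries for comparison. The Wnt1Cre-mTmG experiment had 3 libraries each of tail pNSCs, dorsal root ganglion (DRG) pNSCs, brain NSCs and DRG NCSCs. There, Cre under the Wnt1 promoter, which is active in premigratory crest and dorsal midbrain, switches a reporter from Tomato to GFP, and the pNSC lines were Tomato+ and GFP-. A crest cell in which Cre had not acted would keep Tomato and count as GFP- here. Both pNSC lines came from postnatal tissue. The NCSCs came from ganglia of wild-type adults without this reporter. Adult mice were 4 to 6 weeks old and postnatal mice 1 to 5 days old, while brain NSCs were made from whole brains of adult or postnatal animals. The labels do not say whether replicates were separate cultures or animals, and the figure legends of the study call them biological replicates without saying which, so p-values measure the spread between these libraries, which may be technical.

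Because most of these genes encode factors that bind DNA, their own promoters were searched for letters that such factors can bind, and the 250 bases upstream of the start site are shown for 5 members with a RefSeq entry (GRCm38.p6) whose window touches no annotated exon. The windows are written 5′ to 3′ in the direction of the gene, and capitals mark a match to CAGGTG, the E-box bound by Snail-type repressors, to GCCNNNGGC, an AP-2 site, or to TAATTG, a homeodomain site that Msx proteins can bind, on either strand.

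Snai1, chr2:167537945-167538194, plus strand:
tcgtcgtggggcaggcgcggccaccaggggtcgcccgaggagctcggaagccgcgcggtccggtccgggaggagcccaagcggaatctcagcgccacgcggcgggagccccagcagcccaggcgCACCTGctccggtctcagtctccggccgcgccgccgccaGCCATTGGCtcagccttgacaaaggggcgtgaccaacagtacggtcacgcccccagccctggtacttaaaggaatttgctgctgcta

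Msx1, chr5:37824586-37824835, minus strand:
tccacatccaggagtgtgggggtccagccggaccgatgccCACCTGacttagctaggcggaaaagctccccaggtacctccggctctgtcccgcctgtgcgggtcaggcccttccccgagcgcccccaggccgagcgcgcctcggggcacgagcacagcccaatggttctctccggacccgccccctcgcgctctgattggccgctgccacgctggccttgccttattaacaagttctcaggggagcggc

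Tfap2b, chr1:19211804-19212053, plus strand:
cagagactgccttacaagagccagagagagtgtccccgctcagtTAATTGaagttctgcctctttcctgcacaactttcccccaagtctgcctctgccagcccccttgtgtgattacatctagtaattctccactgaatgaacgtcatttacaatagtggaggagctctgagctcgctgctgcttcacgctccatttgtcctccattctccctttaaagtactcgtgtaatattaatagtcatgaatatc

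Foxd3, chr4:99656049-99656298, plus strand:
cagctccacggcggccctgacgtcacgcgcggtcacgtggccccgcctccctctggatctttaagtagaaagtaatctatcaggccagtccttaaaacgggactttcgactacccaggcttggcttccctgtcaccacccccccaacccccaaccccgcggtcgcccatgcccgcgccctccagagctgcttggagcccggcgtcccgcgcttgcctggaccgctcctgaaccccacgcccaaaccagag

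Twist1, chr12:33957421-33957670, plus strand:
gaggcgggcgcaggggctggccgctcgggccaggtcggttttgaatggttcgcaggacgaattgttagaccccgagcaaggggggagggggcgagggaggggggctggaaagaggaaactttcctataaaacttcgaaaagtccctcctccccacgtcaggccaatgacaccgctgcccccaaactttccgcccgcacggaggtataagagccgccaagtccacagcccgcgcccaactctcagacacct

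The Snai1 window held 1 E-box, written as its reverse complement, and 1 AP-2 match, and the Msx1 window held 1 E-box. The Tfap2b window, whose RefSeq start lies inside the longer GENCODE gene, held 1 TAATTG. No match to these letters or to the forkhead motif GTAAACA was found in the Foxd3 and Twist1 windows. Of 32851 such windows, 17.2% held the E-box, 13.7% the AP-2 motif, 7.17% TAATTG and 3.17% the forkhead motif. These are matches of letters and were not tested as binding sites. In base composition the Snai1, Msx1, Foxd3 and Twist1 windows were GC-rich, at 70.0%, 68.0%, 65.6% and 62.4%, and Tfap2b was at 46.4%, beside a median of 52.4% over all windows. Of the 10 members, 8 matched an entry.

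Levels are given as cpm, the counts of a gene per 1000000 gene counts of its library, scaled with TMM factors over all 28 libraries. Depth ranged from 9808246 to 22637031 counts per library, and the brain NSCs and DRG pNSCs of the Wnt1Cre-mTmG experiment were the shallowest, at 9808246 to 11431445. A library with 3 counts or fewer of a gene was treated as at the detection floor. Replicates agreed closely, except that replicate 3 of the DRG NCSCs stood apart from the other two, with a chi-square per gene of 15.9 and 19.9 against 1.09 to 2.74 in all other pairs; the members called in the 3 comparisons with NCSCs numbered 8, 8 and 9 with and without it. The labelled cell types were checked against marker lists. The 7 NSC genes summed to 4497 to 6534 cpm in all pNSC and brain NSC libraries and to 1444 to 1838 in NCSCs, where Olig2 was at 14.9 cpm and the 8 Schwann lineage genes summed to 3871 to 3930. In tail cells 12 mesenchymal genes summed to 75530 to 77190 cpm, 6 keratinocyte genes to 5454 to 5549 and 8 Schwann lineage genes to 1509 to 1523, whereas lung cells held 28310 to 29080 cpm of 6 lung epithelial genes and 4159 to 4175 of 6 leukocyte genes. In bulk RNA of such mixed cells, fewer cells of a type and less RNA per cell cannot be told apart.

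All 10 genes reached 1 cpm in both libraries of tail cells, and 8 did so in all 3 libraries of DRG NCSCs, where Msx1 and Msx2 did not. In Nes-GFP lung pNSCs and in lung cells 5 genes reached it, but different ones: Tfap2a, Twist1, Ets1, Msx1 and Msx2 in the pNSCs, and Snai1, Snai2, Ets1, Ngfr and Msx1 in the lung cells. The count was 4 in Wnt1Cre-mTmG tail pNSCs and in the brain NSCs of the Sox2-GFP and Wnt1Cre-mTmG experiments, 3 in Nes-GFP tail pNSCs and Sox2-GFP lung pNSCs, and 2 in Nes-GFP brain NSCs and DRG pNSCs. Ets1 was the only member at 1 cpm or more in every library of all 11 groups.

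**Figure D1:**
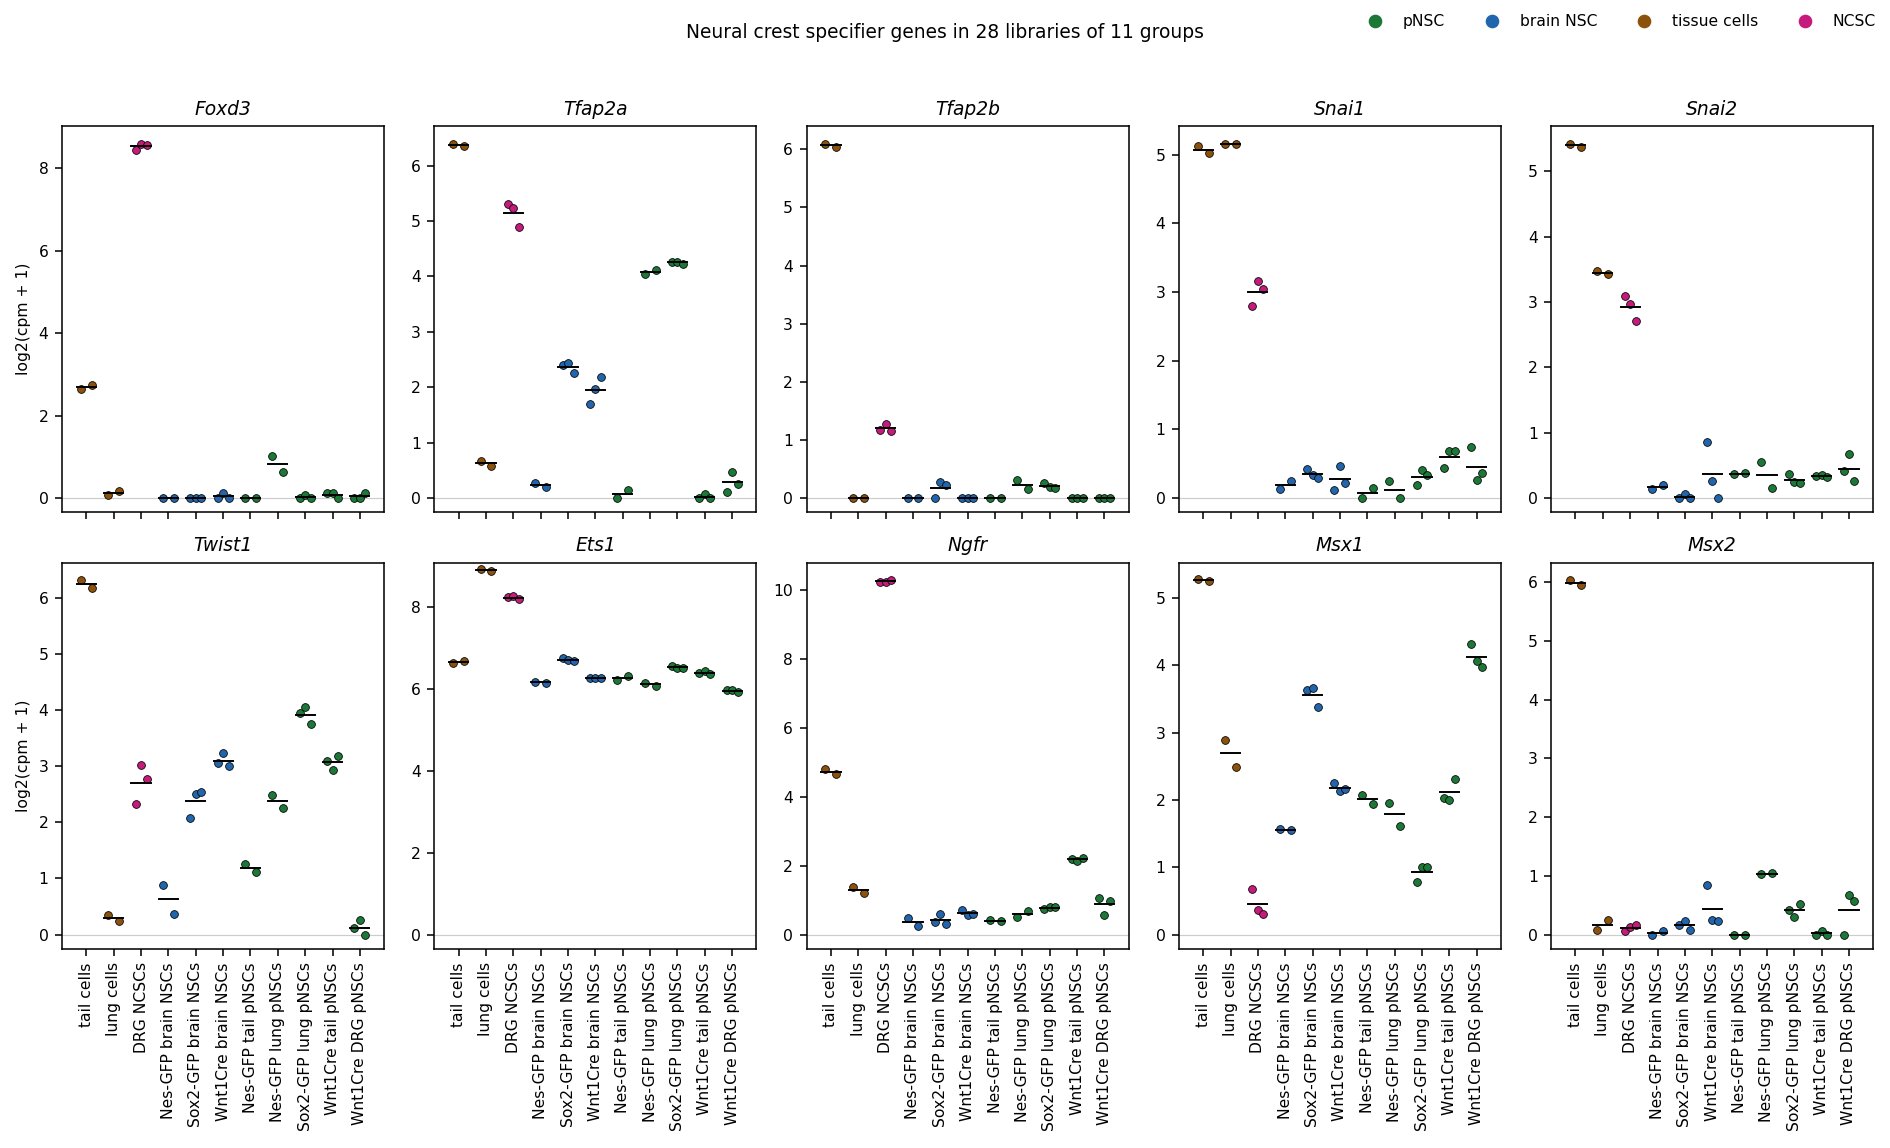
Level of each gene in every library, as log2(cpm + 1) on the vertical axis, with the 11 groups along the horizontal axis, 1 point per library and a black bar for the mean of the plotted values. Tail cells have all 10 genes, DRG NCSCs stand highest for Foxd3 and Ngfr, and only Ets1 is well above 0 in every group.

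Compared per kilobase of exon, the leading genes differed between the sources. In DRG NCSCs Ngfr led with 352 ± 7.78 cpm per kb (SD, n = 3), followed by Foxd3 with 159 ± 8.89, Ets1 with 35.6 ± 1.08 and Tfap2a with 7.07 ± 1.08. In tail cells Twist1 led with 46.1 ± 3.01 cpm per kb (n = 2), and Snai2, Snai1, Msx2 and Tfap2a followed within a narrow range of 20.3 to 16.8. Ets1 led in lung cells with 56.9 ± 1.43 cpm per kb, and it also led in every pNSC and brain NSC group, at 7.24 to 12.3. Second place per kb among the pNSC lines went to Twist1 in Sox2-GFP lung pNSCs (8.73 ± 0.996) and Wnt1Cre-mTmG tail pNSCs (4.57 ± 0.470), to Msx1 in DRG pNSCs (5.32 ± 0.709) and Nes-GFP tail pNSCs (0.981 ± 0.0861), and to Tfap2a in Nes-GFP lung pNSCs (3.26 ± 0.119).

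**Figure D2:**
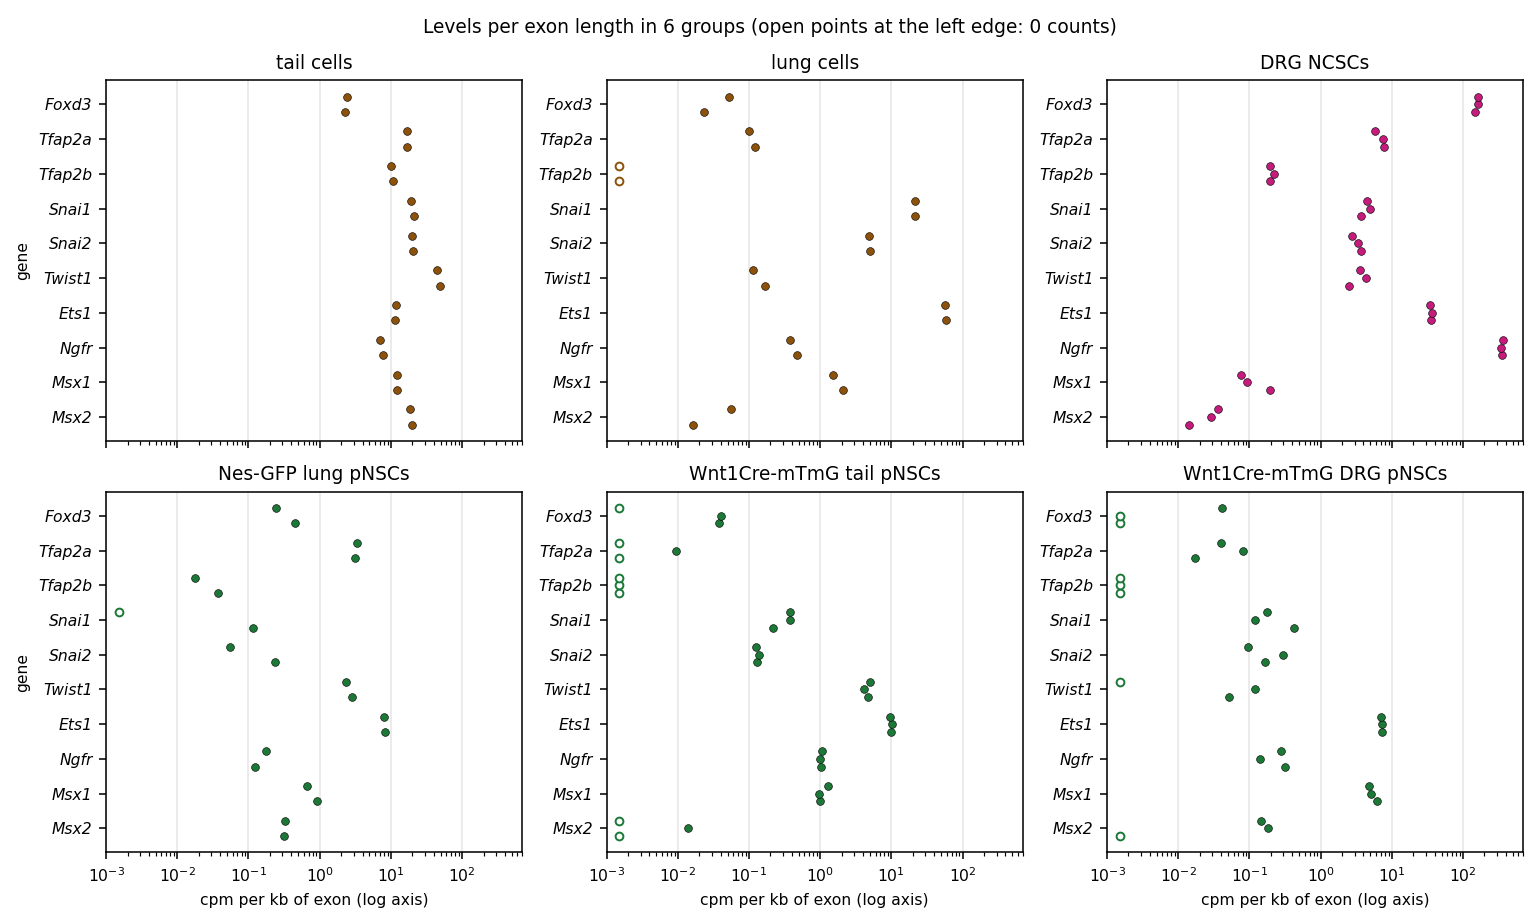
Level per kilobase of exon (cpm per kb, log axis) of each gene in 6 groups, 1 point per library, with open points at the left edge for libraries with 0 counts. In tail cells the genes lie between Foxd3 at 2.36 and Twist1 at 46.1, whereas in DRG NCSCs they spread from Ngfr at 352 down to Tfap2b, Msx1 and Msx2 below 1.

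Msx1 (ENSMUSG00000048450.10, chr5:37820485-37824583, minus strand of GRCm38), a homeobox factor induced by BMP signals at the plate border and in limb and tooth mesenchyme, was the only border factor with 1 cpm or more in most NSC groups. It was at 37.7 and 37.2 cpm in tail cells, and at 18.9, 15.7 and 14.7 cpm in DRG pNSCs. Sox2-GFP brain NSCs came next with 11.4, 11.7 and 9.40 cpm, followed by lung cells with 6.40 and 4.62. DRG NCSCs were lowest, at 0.602, 0.285 and 0.235 cpm, which were 13, 6 and 4 counts, so that every DRG pNSC library lay above every NCSC library from the same kind of ganglion. The fitted log2 difference of DRG pNSCs minus NCSCs was 5.39 (SE 0.21, edgeR adjusted p = 1.15e-13). Adjacent groups in the order overlapped among the brain NSCs and tail pNSCs of the Wnt1Cre-mTmG experiment and the tail and lung pNSCs of the Nes-GFP experiment, whose group means lay between 2.48 and 3.53 cpm.

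Msx2 (ENSMUSG00000021469.9, chr13:53466884-53473074, minus strand), its close relative in skin, bone and border tissue, was nearly limited to tail cells, with 64.2 and 60.8 cpm from 1145 and 951 counts. Nes-GFP lung pNSCs had 1.04 and 1.06 cpm from 22 and 19 counts. In the other groups no library passed 10 counts, and Nes-GFP tail pNSCs had 0 in both libraries, which was at least 384-fold lower than in tail cells. Msx1 and Msx2 therefore ranked differently: DRG pNSCs, second for Msx1, had 0, 6 and 5 counts of Msx2.

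Tfap2a (ENSMUSG00000021359.16, chr13:40715302-40738376, minus strand), the AP-2 factor shared by crest and epidermis, separated the lung lines from the tail lines. Tail cells had 83.0 and 81.3 cpm and DRG NCSCs 38.7, 36.7 and 28.6 cpm. Lung pNSCs came next, with 18.3, 18.3 and 17.7 cpm in the Sox2-GFP line and 15.6 and 16.4 in the Nes-GFP line. These groups did not overlap with each other or with Sox2-GFP brain NSCs at 4.28, 4.44 and 3.80 cpm and Wnt1Cre-mTmG brain NSCs at 2.23, 2.90 and 3.56. Tail pNSCs were at the floor in both experiments, with 0 and 2 counts in the Nes-GFP line and 0, 1 and 0 in the Wnt1Cre-mTmG line, and DRG pNSCs had 1, 4 and 2 counts. Lung cells had only 11 and 8 counts, or 0.592 and 0.493 cpm, beside 293 to 403 counts in each library of both lung pNSC lines. The antisense genes Gm47061, Gm26688 and Gm47067 share 265, 380 and 73 exon bases with Tfap2a, and since the strand setting of the counting was not given, their reads cannot be told apart from those of Tfap2a.

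Tfap2b (ENSMUSG00000025927.13, chr1:19208914-19238576, plus strand), the AP-2 factor of crest, kidney and epidermis, was at 67.2 and 64.7 cpm in tail cells. DRG NCSCs had 1.25, 1.42 and 1.23 cpm from 27, 30 and 21 counts, which was far below tail cells. All other libraries had 5 counts or fewer, and 0 was counted in every library of lung cells, Nes-GFP tail pNSCs, Nes-GFP brain NSCs and the pNSCs and brain NSCs of the Wnt1Cre-mTmG experiment. Tfap2a and Tfap2b thus had the same leading pair of groups, but lung pNSCs had Tfap2a with at most 5 counts of Tfap2b.

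Foxd3 (ENSMUSG00000067261.4, chr4:99656299-99658622, plus strand), the forkhead repressor that keeps crest progenitors undifferentiated, was read almost only in DRG NCSCs, with 345, 383 and 379 cpm from 7455, 8064 and 6455 counts. Tail cells had 5.27 and 5.69 cpm, from 94 and 89 counts. Nes-GFP lung pNSCs had 22 and 10 counts, or 1.04 and 0.560 cpm, and every library of the other 8 groups had 2 counts or fewer. The first 3 groups in the order did not overlap with each other or with the rest, and among the remaining 8 no neighbours could be told apart. A miRNA gene, Gm23366, shares 89 exon bases with Foxd3 on the same strand.

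Ets1 (ENSMUSG00000032035.15, chr9:32636221-32757820, plus strand), an ETS factor of cranial and cardiac crest that is also used by endothelium and lymphocytes, had the smallest ratio between its highest and lowest group means among the members. Lung cells were highest with 490 and 473 cpm, and DRG NCSCs had 302, 310 and 292. The remaining 9 groups lay between 61.4 and 105 cpm in their means. Within that band Sox2-GFP brain NSCs (107, 104 and 103 cpm) and tail cells (98.0 and 102) were at the top and DRG pNSCs (61.6, 62.1 and 60.4) at the bottom, and neighbours overlapped only between Wnt1Cre-mTmG brain NSCs and Nes-GFP tail pNSCs. Endothelial and leukocyte markers were abundant in lung cells, where 6 endothelial genes summed to 4093 to 4192 cpm; their part in the Ets1 level there was not tested.

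Snai1 (ENSMUSG00000042821.7, chr2:167538195-167542814, plus strand), a zinc finger repressor of E-cadherin, was at 33.8 and 31.3 cpm in tail cells and at 34.4 and 34.6 in lung cells. Their log2 difference was -0.04 (SE 0.090, edgeR adjusted p = 0.692), and it was 0.02 without tail cell replicate 2. DRG NCSCs followed with 5.98, 7.93 and 7.28 cpm, and no pNSC or brain NSC library exceeded 0.679 cpm or 13 counts. Those 8 groups overlapped from one neighbour to the next throughout the order.

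Snai2 (ENSMUSG00000022676.7, chr16:14705852-14709385, plus strand), or Slug, the relative of Snai1 with a longer-lasting part in migrating crest, was at 41.8 and 40.4 cpm in tail cells, 10.1 and 9.73 in lung cells and 7.55, 6.79 and 5.57 in DRG NCSCs. These 3 groups kept apart from each other and from all pNSC and brain NSC libraries, which had 10 counts or fewer. Sox2-GFP brain NSCs were lowest with 0, 1 and 0 counts. Snai1 and Snai2 thus shared their 3 leading groups, but the difference between tail and lung cells was called for Snai2 and not for Snai1.

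Twist1 (ENSMUSG00000035799.6, chr12:33957671-33959829, plus strand), a helix-loop-helix factor of crest and other mesenchyme, differed widely among the stem cell lines. Tail cells led with 78.5 and 71.6 cpm, and Sox2-GFP lung pNSCs were second with 14.5, 15.7 and 12.5. A middle band held Wnt1Cre-mTmG brain NSCs (7.33, 8.40 and 7.03 cpm), Wnt1Cre-mTmG tail pNSCs (7.55, 6.62 and 8.14), DRG NCSCs (4.03, 7.12 and 5.81), Sox2-GFP brain NSCs (3.24, 4.70 and 4.84) and Nes-GFP lung pNSCs (4.58 and 3.81), and each group in it overlapped with the next. Nes-GFP tail pNSCs had 1.38 and 1.17 cpm and Nes-GFP brain NSCs 0.852 and 0.290. DRG pNSCs had 1, 2 and 0 counts and lung cells 5 and 3. The DRG NCSC libraries thus overlapped with those of a brain NSC line, while the DRG pNSC line was at the floor.

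Ngfr (ENSMUSG00000000120.6, chr11:95568818-95587735, minus strand), the p75 receptor by which NCSCs are often sorted, reached 1203, 1192 and 1243 cpm in DRG NCSCs. Tail cells had 26.9 and 24.2 cpm. Wnt1Cre-mTmG tail pNSCs were next with 3.57, 3.43 and 3.69 cpm, from 81, 74 and 73 counts, above lung cells at 1.61 and 1.29. Every other library had 17 counts or fewer and at most 1.10 cpm. The first 4 groups did not overlap, and further down only Sox2-GFP lung pNSCs (0.666, 0.737 and 0.748 cpm) lay clear of the next group.

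Differences between groups were tested in 14 comparisons. A gene was called higher or lower in edgeR's quasi-likelihood test when its log2 fold change was 1 or more in size and the Benjamini-Hochberg adjusted p was below 0.05, with all libraries of an experiment in the fit and p-values adjusted over all genes tested (16948 in the Nes-GFP, 14448 in the Wnt1Cre-mTmG and 16234 in the Sox2-GFP experiment). Beside each count of members stands the share of all tested genes called in that direction. A gene was tested only where enough libraries of the experiment had counts of it. Members that passed this filter only through a compared group were tested because they were high there, so those counts are no independent support. Where all libraries of the lower group had 0 counts, the fold is a lower bound set against 3 counts per library, and where they totalled 1 to 3 counts it is a ratio of pooled levels with its 95% counting interval. Comparisons within an experiment share groups, and the 3 comparisons that use lung cells share those 2 libraries, so their counts are not independent of each other.

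**Figure D3:**
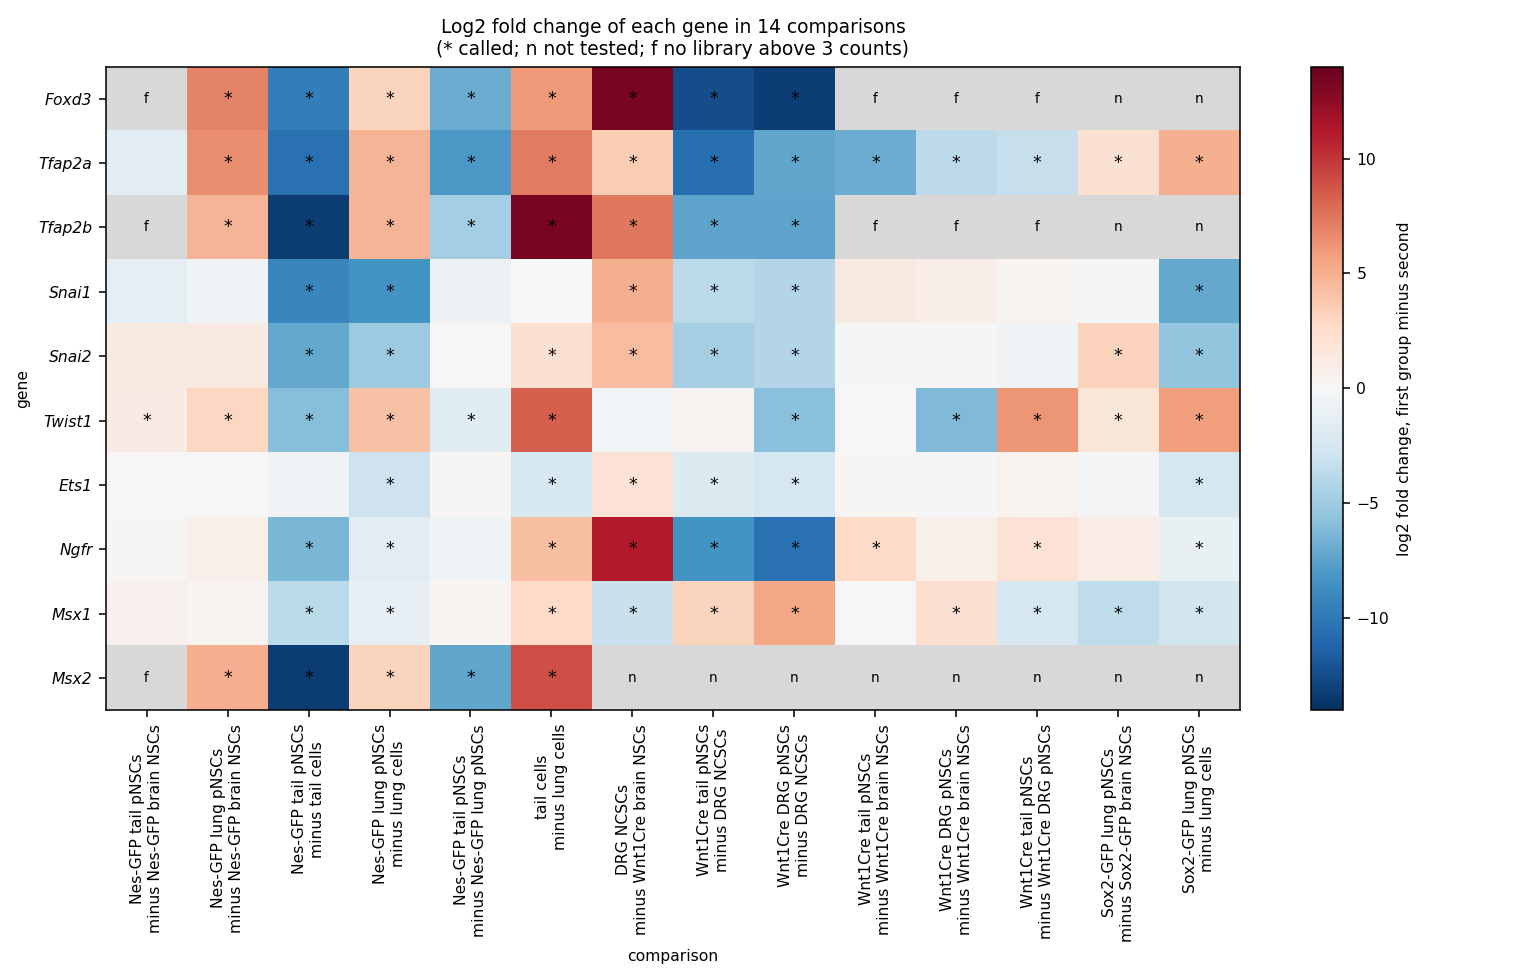
Log2 fold change of each gene (rows) in the 14 comparisons (columns), first group minus second, on a colour scale from -14 to 14. Asterisks mark called differences, n a gene that did not pass the filter, and f a pair of groups in which no library had more than 3 counts. The Ets1 row is pale throughout, and the columns of Nes-GFP tail pNSCs minus tail cells and of pNSCs minus NCSCs are mostly blue. Where a group has 0 counts, the size of the value depends on the fit.

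DRG NCSCs had 7 of 9 tested members higher than Wnt1Cre-mTmG brain NSCs and 1 lower, where 22.1% of all tested genes were called higher and 14.8% lower. Msx2 did not pass the filter. Foxd3, Tfap2b, Snai1 and Snai2 had at most 13 counts in any pNSC or brain NSC library of this experiment and passed the filter through the NCSCs. The filter therefore partly set this count, and likewise the counts in both comparisons of pNSCs with NCSCs below. Ngfr differed by 11.12 on the log2 scale (SE 0.085, edgeR adjusted p = 6.59e-23), between 1212 ± 26.8 and 0.539 ± 0.0763 cpm (SD, n = 3 each). Foxd3, with 1 count in the 3 brain libraries together, was 12280-fold higher by pooled levels (95% interval 2204 to 485100). Snai1 (log2 difference 5.02), Snai2 (4.31), Tfap2a (3.58) and Ets1 (1.98, SE 0.038) were called higher too, and Tfap2b was at least 4.81-fold higher. Msx1 was lower by a log2 difference of -3.17 (SE 0.30, edgeR adjusted p = 2.18e-08). Twist1 differed by -0.42 (SE 0.18, edgeR adjusted p = 0.0434), under the fold required, and its libraries overlapped between the groups. Of 18 tested genes of migrating crest and its derivatives 8 were higher and 6 lower, with a median log2 difference of 0.80 beside 0.015 over all genes tested. Erbb3, the neuregulin receptor of crest and Schwann cells, was at 940 against 0.517 cpm, and Sox10, the SoxE factor of migrating crest, at 795 against 14.5. The 8 Schwann lineage genes, 2 of which are also in the crest list, were all higher. So were 10 of 12 mesenchymal and the 4 tested leukocyte markers. Endothelial markers were higher in 3 of 4 tested genes and lower in 1, and neuronal markers higher in 4 of 6 and lower in 1. The neuronal sum was lower, at 490.9 to 519.2 against 976.2 to 993.6 cpm. The part of all these in the crest genes was not tested.

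Of 8 tested epithelial-mesenchymal transition genes, 5 were higher in NCSCs and 1 lower, where 22.1% of all tested genes were called higher and 14.8% lower. The list holds epithelial as well as mesenchymal genes, so its count has no single direction. The epithelial gene Cldn1 was among those called. Zeb2, which acts with the Snail factors, was at 641 against 93.0 cpm and fibronectin (Fn1) at 846 against 63.7. Cdh1, the E-cadherin gene that Snai1 represses, was also higher, at 3.74 against 0.0565 cpm.

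Both Wnt1Cre-mTmG pNSC lines were postnatal and carried the reporter, whereas the NCSCs were adult and wild-type, so that age and genotype, and for the tail line also the tissue, cannot be told apart from the cell type. Wnt1Cre-mTmG tail pNSCs, set against these NCSCs, had 7 of 9 tested members lower and 1 higher, where 22.6% of all genes were called lower and 15.3% higher. Ngfr was lower by a log2 difference of -8.42 (SE 0.062, edgeR adjusted p = 5.81e-23) and Foxd3 had 2, 2 and 0 counts against 7455, 8064 and 6455 (edgeR adjusted p = 3.95e-21). Tfap2a was 2248-fold lower by pooled levels (95% interval 403 to 88840) and Tfap2b at least 9.24-fold. Snai2 (-4.63), Snai1 (-3.76) and Ets1 (-1.86) were lower as well, and Msx1 was higher by 3.08 (SE 0.27, edgeR adjusted p = 8.27e-09). Twist1, with overlapping libraries, did not reach the fold (0.38, SE 0.16, edgeR adjusted p = 0.0378). Of the migrating crest genes 7 were higher and 7 lower of 18 tested, with a median of -0.19 beside -0.002 over all genes; Erbb3, Ret, Rxrg and Sox10 were those that fell furthest. The 8 Schwann lineage genes were all lower (median -5.98, sums of 96.0 to 101.1 against 3871 to 3930 cpm), as were 8 of 12 mesenchymal markers with 2 higher (714.2 to 728.6 against 7532 to 7613 cpm), the 4 tested leukocyte markers (0.883 to 1.34 against 549.1 to 580.3 cpm), 2 of 4 tested endothelial markers and 3 of 6 neuronal markers with 2 higher, although the neuronal sum was higher (870.9 to 883.8 against 490.9 to 519.2 cpm). Their part in the falls of the members was not tested.

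DRG pNSCs, which like the NCSCs came from ganglia, had 8 of 9 tested members lower than NCSCs and 1 higher, where 23.3% of all genes were called lower and 15.1% higher. Foxd3 was 11900-fold lower by pooled levels (95% interval 2136 to 470200), Ngfr lower by a log2 difference of -10.45 (SE 0.081, edgeR adjusted p = 1.13e-22) and Tfap2a by -7.28 (SE 0.27, 3.82e-14). Twist1, unlike in tail pNSCs, was lower, 60.7-fold by pooled levels (20.6 to 295.7). Snai2 (-4.15), Snai1 (-4.12) and Ets1 (-2.30) were lower, Tfap2b was at least 4.66-fold lower, and Msx1 was the member that was higher. Among 9 tested plate border genes 4 were higher and 2 lower. Pax7, a border factor of dorsal neural tube, was at 6.97 against 0.0196 cpm. Zic1, another dorsal factor, was at 0.0321 against 8.99 cpm. The lower level of each was at the detection floor, so no size is given for these differences. The 8 Schwann lineage genes were all lower in this line too (median -6.63, sums of 279.3 to 284.0 against 3871 to 3930 cpm), with 10 of 12 mesenchymal markers lower and 0 higher (median -7.03, 79.2 to 87.4 against 7532 to 7613 cpm), the 4 tested leukocyte markers lower (2.63 to 2.85 against 549.1 to 580.3 cpm), 3 of 4 tested endothelial markers lower and 1 higher, and 4 of 6 neuronal markers lower and 1 higher, although their sum was higher (1749 to 1832 against 490.9 to 519.2 cpm). Their part in the falls of the members was not tested.

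Nes-GFP tail pNSCs against tail cells gave 9 of 10 members lower and 0 higher, where 32.6% of all genes were called lower and 14.1% higher and the median of all genes was -0.16. Tfap2b passed the filter through tail cells alone, and Snai1 and Snai2 through tail and lung cells, so the filter partly set this count. Ets1 did not reach the fold, at 73.7 and 78.8 against 98.0 and 102 cpm (-0.48, SE 0.044, edgeR adjusted p = 8.66e-27). Tfap2b was at least 405-fold lower, Msx2 at least 384-fold and Foxd3 at least 33.7-fold. By pooled levels Tfap2a was 1521-fold lower (95% interval 420.6 to 12560) and Snai1 604-fold (166.9 to 4996). Snai2 (-7.17), Ngfr (-6.36), Twist1 (-5.97) and Msx1 (-3.72) were lower with counts in both groups. The relatives of the members fell with them, with all 8 tested paralogues lower, among them Tfap2c (0 against 76.8 cpm), Foxd1 (0 against 24.2) and Twist2 (0 against 14.9). All 12 mesenchymal, 6 keratinocyte and 8 Schwann lineage markers were lower too. So were all 6 endothelial, 6 leukocyte and 6 muscle and pericyte markers. The 9 genes thus moved with the markers of the other cells of the tail. The part of those cells in the levels was not tested.

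Lung cells gave a divided picture. Nes-GFP lung pNSCs had 5 members higher and 5 lower of 10, where 20.2% of all genes were called higher and 34.9% lower. Snai1 and Snai2 passed the filter through tail and lung cells here, and through lung cells in the Sox2-GFP experiment. The filter therefore partly set the counts of members lower than in lung cells. Higher were Tfap2a (4.80, SE 0.22, edgeR adjusted p = 1.27e-105), Twist1 (4.11, SE 0.37, 1.24e-28), Msx2 (3.07, SE 0.61, 7.78e-07), Foxd3, which was 9.51-fold higher by pooled levels (95% interval 2.98 to 48.5), and Tfap2b with 5 and 2 counts against 0 and 0. Lower were Snai1 (-8.35), Snai2 (-5.03), Ets1 (-2.87), Ngfr (-1.55) and Msx1 (-1.20). The Tfap2b call was lost without Nes-GFP lung pNSC replicate 1 (adjusted p = 0.0666). The Msx1 call was lost without replicate 2 of the pNSCs (-0.99) and without replicate 1 of the lung cells (-0.89), both of which fell under the fold. Sox2-GFP lung pNSCs were postnatal, while the labels do not give the age of the lung cells. Compared with the same lung cells, this line had 2 of 7 tested members higher and 5 lower, where 21.3% of genes were called higher and 34.9% lower. Twist1 (5.89, SE 0.24, edgeR adjusted p = 6.52e-128) and Tfap2a (5.01, SE 0.19, 1.53e-150) were higher, and Snai1 (-7.13), Snai2 (-5.52), Msx1 (-2.62), Ets1 (-2.42) and Ngfr (-1.05) lower. The Ngfr call sat at the fold threshold. It was lost with upper-quartile scaling (-0.996), with no filter (-0.99) and with the replicate number as a block (-0.99). Leaving out replicate 1 of either group lost it as well. All 6 lung epithelial, endothelial and leukocyte markers were lower in both pNSC lines. Mesenchymal markers were lower in 10 of 12 genes in both, with 0 higher in the Nes-GFP and 2 in the Sox2-GFP line. Their sums were 42.8 to 45.4 and 110.7 to 117.4 cpm against 5489 to 5619 in lung cells. Schwann lineage genes were lower in 6 of 8 and 5 of 8, with 1 higher in each line. Muscle and pericyte markers were lower in 4 of 6 and 4 of 4 tested. The part of all these in the falls of the members was not tested. Cdh1, at 392 cpm in lung cells, was at 0.0236 cpm in the Nes-GFP and 0.0300 in the Sox2-GFP line, so that E-cadherin and its Snail repressors were low in the same cells.

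Tail cells and lung cells were compared directly. Their labels give no age, so a difference in age cannot be told apart from the tissue. Of 10 members 8 were higher in tail cells and 1 lower, where 20.5% of all genes were called higher and 22.9% lower. Tfap2b passed the filter through tail cells alone. Tfap2b was at least 381-fold higher, and Msx2 (9.05, SE 0.22), Twist1 (8.35, SE 0.19), Tfap2a (7.26, SE 0.16), Ngfr (4.16, SE 0.19), Msx1 (2.79, SE 0.13) and Snai2 (2.09, SE 0.11) were called higher. Foxd3 was 63.5-fold higher by pooled levels (95% interval 21.4 to 310.6). Ets1 was the member that was lower (-2.23, SE 0.037), and Snai1 was the one not called. Of 12 plate border genes 9 were higher and 0 lower, with a median log2 difference of 4.52 beside 0.007 over all genes, among them Tfap2c at 76.8 against 0 cpm, Zic1 at 10.6 against 0 and Pax3 at 3.05 against 0. The 6 keratinocyte markers were all higher in tail cells, with Krt5 at 2427 and Krt14 at 1436 cpm against 0.296 and 0.258; their part in the AP-2 and Msx2 levels was not tested. Mesenchymal markers were higher in 10 of 12 genes and lower in 2 (median 2.60, sums of 75530 to 77190 against 5489 to 5619 cpm) and Schwann lineage genes in 6 of 8 with 0 lower (median 2.11, 1509 to 1523 against 614.9 to 622.0 cpm), and their part in the other members was not tested. Endothelial markers were lower in 5 of 6 genes and leukocyte markers in 6 of 6.

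Each pNSC line was then compared with the brain NSC line of its own experiment. Nes-GFP lung pNSCs had 5 of 10 higher and 0 lower, where 4.56% of all genes were called higher and 4.15% lower. Tfap2a was at 15.6 and 16.4 against 0.201 and 0.145 cpm (6.46, SE 0.26, edgeR adjusted p = 5.44e-134) and Twist1 at 4.58 and 3.81 against 0.852 and 0.290 (2.86, SE 0.29, 1.86e-22). Msx2 was 42.7-fold higher by pooled levels (95% interval 7.24 to 1725), Foxd3 at least 5.41-fold and Tfap2b at least 1.18-fold. The Tfap2b call rests on 5 and 2 counts and was lost without either brain NSC library or without lung pNSC replicate 1 (adjusted p = 0.0666 to 0.114). Ets1 differed by -0.07 (SE 0.046, edgeR adjusted p = 0.224) and Msx1 by 0.34 (SE 0.25, edgeR adjusted p = 0.285). Pax3, the border factor that acts with Zic1 in crest induction, was at 22.8 against 0 cpm, and Pax7 at 2.24 against 0.124, these being the 2 of 12 border genes called, both higher. Of 18 migrating crest genes only the integrin gene Itga4 was called, at 42.3 against 13.2 cpm, and Sox10 was at 0.0560 cpm in the lung line. Mesenchymal markers were higher in 3 of 12 genes (Postn, Col1a1 and Prrx1) and lower in 0, with sums of 42.8 to 45.4 cpm against 32.4 to 32.9. Leukocyte markers were higher in 2 of 6 genes (sums of 2.50 to 3.14 against 2.27 to 2.51 cpm) and endothelial markers in 1 of 6, neuronal markers were lower in 4 of 6 (1648 to 1666 against 1730 to 1805 cpm), and keratinocyte markers were called in 0 of 6, with Krt5 and Krt14 at 0. Muscle and pericyte markers were higher in 0 of 6 and lower in 1, Acta2, with sums of 1.62 to 3.07 against 34.6 to 35.3 cpm, and Schwann lineage genes higher in 0 of 8 and lower in 1, Gap43 (95.8 to 97.8 against 167.0 to 178.5 cpm). Their part in the result was not tested.

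Sox2-GFP lung pNSCs had 3 of 7 tested members higher than Sox2-GFP brain NSCs and 1 lower, where 5.76% of all genes were called higher and 9.99% lower. Tfap2a was at 18.3, 18.3 and 17.7 against 4.28, 4.44 and 3.80 cpm (2.12, SE 0.10, edgeR adjusted p = 2.75e-98), and Twist1 at 14.5, 15.7 and 12.5 against 3.24, 4.70 and 4.84 (1.74, SE 0.11, 1.35e-59). Snai2 had 6, 4 and 4 counts against 0, 1 and 0, a pooled ratio of 12.3 (95% interval 1.87 to 521). Msx1 was lower, at 0.713, 1.01 and 1.01 against 11.4, 11.7 and 9.40 cpm (-3.54, SE 0.16, edgeR adjusted p = 1.02e-107). Ngfr stood just under the fold (0.99, SE 0.41, edgeR adjusted p = 0.0239) and passed it with no filter (1.01). Foxd3, Tfap2b and Msx2 did not pass the filter. Crest genes outside the members were mostly lower in this line, with 1 of 18 higher and 10 lower and a median of -1.17 beside 0 over all genes; Sox10 was at 0.168 against 9.49 cpm and Nr2f2 at 1.09 against 44.2. Of 8 Schwann lineage genes, which share Sox10 and Erbb3 with the crest list, 0 were higher and 6 lower (median -1.81, sums of 74.2 to 78.2 against 214.3 to 216.9 cpm), and mesenchymal markers were higher in 2 of 12 and lower in 3 (110.7 to 117.4 against 169.8 to 173.4 cpm), neuronal markers higher in 1 of 6 and lower in 3, and endothelial markers higher in 2 of 6. Their part in the crest genes and the members was not tested.

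In Nes-GFP tail pNSCs, 1 of 10 members was called higher than in their brain NSCs and 0 lower, where 4.31% of all genes were called higher and 6.59% lower. That member was Twist1, at 1.38 and 1.17 against 0.852 and 0.290 cpm (1.13, SE 0.385, edgeR adjusted p = 0.0079), and its call was lost without tail pNSC replicate 1 (adjusted p = 0.0624) or brain NSC replicate 2 (0.54, adjusted p = 0.333). Mesenchymal markers were higher in 5 of 12 genes and lower in 1, with sums of 131.4 to 136.1 cpm against 32.4 to 32.9, and endothelial markers were higher in 3 of 6 (7.94 to 8.65 against 2.36 to 2.85 cpm), and their part in the Twist1 difference was not tested. Msx1 differed by 0.61 (SE 0.24, edgeR adjusted p = 0.0225) and Ets1 by 0.09 (SE 0.045, 0.110), both under the fold. Foxd3, Tfap2b and Msx2 had at most 1 count in any of the 4 libraries. Among 12 border genes 2 were higher and 2 lower, with Zic1 at 0 against 78.2 cpm and Pax7 at 2.41 against 0.124. Of 18 tested migrating crest genes 1 was higher and 3 lower. Schwann lineage genes were higher in 0 of 8 and lower in 3 (40.4 to 41.5 against 167 to 178.5 cpm). Their part in the result was not tested.

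Wnt1Cre-mTmG tail pNSCs had 1 of 9 tested members higher than their brain NSCs and 1 lower, where 9.16% of all genes were called higher and 9.05% lower. Ngfr was higher, at 3.57, 3.43 and 3.69 against 0.626, 0.483 and 0.508 cpm (2.70, SE 0.20, edgeR adjusted p = 2.28e-09). Tfap2a was lower, with 0, 1 and 0 counts against 25, 30 and 42, a pooled ratio of 186 (95% interval 32.65 to 7431). Msx2, which did not pass the filter, had 0, 1 and 0 counts against 9, 2 and 2. Twist1 (-0.03, SE 0.17), Msx1 (-0.09, SE 0.19) and Ets1 (0.12, SE 0.039) stayed under the fold. Snai1, with 8, 13 and 12 counts against 1, 4 and 2, missed the threshold (1.26, SE 0.58, edgeR adjusted p = 0.0672) and passed it without tail pNSC replicate 1 (1.48, adjusted p = 0.0397) or brain NSC replicate 2 (1.92, adjusted p = 0.0351). Of 12 mesenchymal markers 9 were called higher and 0 lower. They summed to 714 to 729 cpm against 111 to 114, with Col1a1 at 102 against 2.83 cpm. Of the muscle and pericyte markers 3 of 4 tested were higher and 1 lower (58.0 to 59.3 against 9.85 to 12.1 cpm), and endothelial markers were higher in 2 of 4 and neuronal markers in 3 of 6 with 1 lower. The part of all these in the Ngfr level was not tested. Of 8 Schwann lineage genes 0 were higher and 3 lower, and Sox10 was at 7.24 against 14.5 cpm.

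DRG pNSCs, against the same brain NSCs, had 1 of 9 tested members higher and 2 lower, where 3.12% of all genes were called higher and 6.41% lower. Msx1 was higher, at 18.9, 15.7 and 14.7 against 3.75, 3.38 and 3.47 cpm (2.22, SE 0.16, edgeR adjusted p = 5.04e-09). Twist1, with 3 counts in the 3 DRG pNSC libraries, was 81.4-fold lower by pooled levels (95% interval 27.5 to 397.5), and Tfap2a was lower by a log2 difference of -3.70 (SE 0.48, edgeR adjusted p = 7.06e-06). Ngfr differed by 0.67 (SE 0.31, edgeR adjusted p = 0.191) with overlapping libraries. Ets1 was under the fold (-0.32, SE 0.042, edgeR adjusted p = 7.13e-06). Pax3 was at 9.46 against 0 cpm and Pax7 at 6.97 against 0.0322, whereas Zic1 was at 0.0321 against 4.72. Of 9 tested plate border genes 2 were higher (Pax3 and Pax7) and 5 lower, with a median log2 difference of -1.96 beside 0.013 over all genes. Mesenchymal markers were higher in 1 of 12 genes and lower in 7 (sums of 79.2 to 87.4 against 110.5 to 114.2 cpm), and their part in the Twist1 difference was not tested. Of 11 BMP ligands, receptors and response genes, 0 were higher and 3 lower, among them Id4 at 3.21 against 9.46 cpm.

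Pairs of pNSC lines were compared within the experiments. The Nes-GFP tail line was postnatal and the lung line adult, so that age and tissue cannot be told apart there. Nes-GFP tail pNSCs had 5 of 10 members lower than Nes-GFP lung pNSCs and 0 higher, where 7.86% of all genes were called lower and 5.00% higher. Tfap2a was 295-fold lower by pooled levels (95% interval 81.4 to 2442), Msx2 at least 6.46-fold, Foxd3 at least 4.91-fold and Tfap2b at least 1.07-fold, and Twist1 was lower by -1.73 (SE 0.24, edgeR adjusted p = 5.13e-12). The Tfap2b call was lost without either tail pNSC library or lung pNSC replicate 1 (adjusted p = 0.0557 to 0.0971). Mesenchymal markers were higher in 2 of 12 genes and lower in 1 (sums of 131.4 to 136.1 against 42.8 to 45.4 cpm), muscle and pericyte markers higher in 2 of 6 (46.2 to 49.8 against 1.62 to 3.07 cpm), Schwann lineage genes higher in 1 of 8 and lower in 3 (40.4 to 41.5 against 95.8 to 97.8 cpm), endothelial and neuronal markers higher in 2 of 6 each and leukocyte markers lower in 3 of 6. Their part in the 5 calls was not tested. Wnt1Cre-mTmG tail pNSCs had 2 of 9 tested members higher than DRG pNSCs and 2 lower, where 10.4% of all genes were called higher and 7.61% lower. Twist1 was 79.9-fold higher by pooled levels (27.2 to 389) and Ngfr higher by 2.03 (SE 0.18, edgeR adjusted p = 2.47e-08), while Msx1 was lower by -2.31 (SE 0.14, 1.93e-10). Tfap2a, with 0, 1 and 0 against 1, 4 and 2 counts, was lower by a pooled ratio of 13.9 (95% interval 1.78 to 625), a call that was lost in 4 of the fits without 1 library (adjusted p = 0.0522 to 0.154). In the same pair 6 of 9 tested plate border genes were higher in tail pNSCs and 2 lower. Of 18 migrating crest genes 4 were higher and 1 lower, with Ednrb, the endothelin receptor of crest and glia, at 1298 against 266 cpm. Of 11 BMP response genes 6 were higher and 0 lower in tail pNSCs, the line with less Msx1. The 12 mesenchymal markers were all higher in the tail line, as were 2 of 4 tested endothelial and 2 of 4 tested muscle and pericyte markers, and neuronal markers were higher in 1 of 6 and lower in 2. Their part in Twist1 and Ngfr was not tested.

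Whether pNSC lines from the same organ differed from their brain NSCs by the same amount was tested as an interaction in a fit of all 28 libraries, with 17393 genes. The lines also differ in reporter, age in the case of lung, and experiment, which cannot be told apart. For tail, 3 of 10 members had a different effect in the Nes-GFP and Wnt1Cre-mTmG experiments, where 16.0% of all tested genes were called. The Ngfr effect was 0.11 in the Nes-GFP line and 2.70 in the Wnt1Cre-mTmG line, a difference of -2.59 (SE 0.59, edgeR adjusted p = 0.00061). Twist1 differed by 1.17 (SE 0.49, edgeR adjusted p = 0.0478) and Tfap2a by 5.44 (SE 2.0, edgeR adjusted p = 0.0218), the latter with both tail lines at 3 counts or fewer in total. The tail calls depended on single libraries: that of Tfap2a was lost without Nes-GFP tail pNSC replicate 2 (adjusted p = 1), that of Ngfr without Nes-GFP brain NSC replicate 1 (-1.98, adjusted p = 0.0965), and that of Twist1 in several fits without 1 library (adjusted p up to 0.415) and with the replicate number as a block (adjusted p = 0.051). For lung, 5 of 10 members had a different effect in the Nes-GFP and Sox2-GFP experiments, where 14.1% of all genes were called. Msx1 was 0.35 in the Nes-GFP and -3.54 in the Sox2-GFP line, a difference of 3.89 (SE 0.32, edgeR adjusted p = 6.83e-13). The Nes-GFP effect was not called on its own. The Msx1 levels of the lung lines were 2.48 and 0.913 cpm, and those of their brain lines 1.94 and 10.8. Tfap2a was higher than brain in both, by 6.47 and 2.12, a difference of 4.34 (SE 0.40, edgeR adjusted p = 1.04e-11), and Twist1 in both by 2.87 and 1.74, a difference of 1.13 (SE 0.42, edgeR adjusted p = 0.0245). The Tfap2a levels of the 2 lung lines, 16.0 ± 0.586 and 18.1 ± 0.317 cpm, were close, whereas those of their brain lines were 0.173 ± 0.0392 and 4.18 ± 0.331. Msx2 (3.62, SE 1.34, edgeR adjusted p = 0.0252) and Tfap2b (4.58, SE 1.73, edgeR adjusted p = 0.0303) were called as well, with Nes-GFP brain NSCs at 1 and 0 counts in total. Without 1 library, the lung calls of Tfap2b (adjusted p up to 0.117), Msx2 (0.122) and Twist1 (0.382) were lost, and those of Tfap2a and Msx1 were not.

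**Figure D4:**
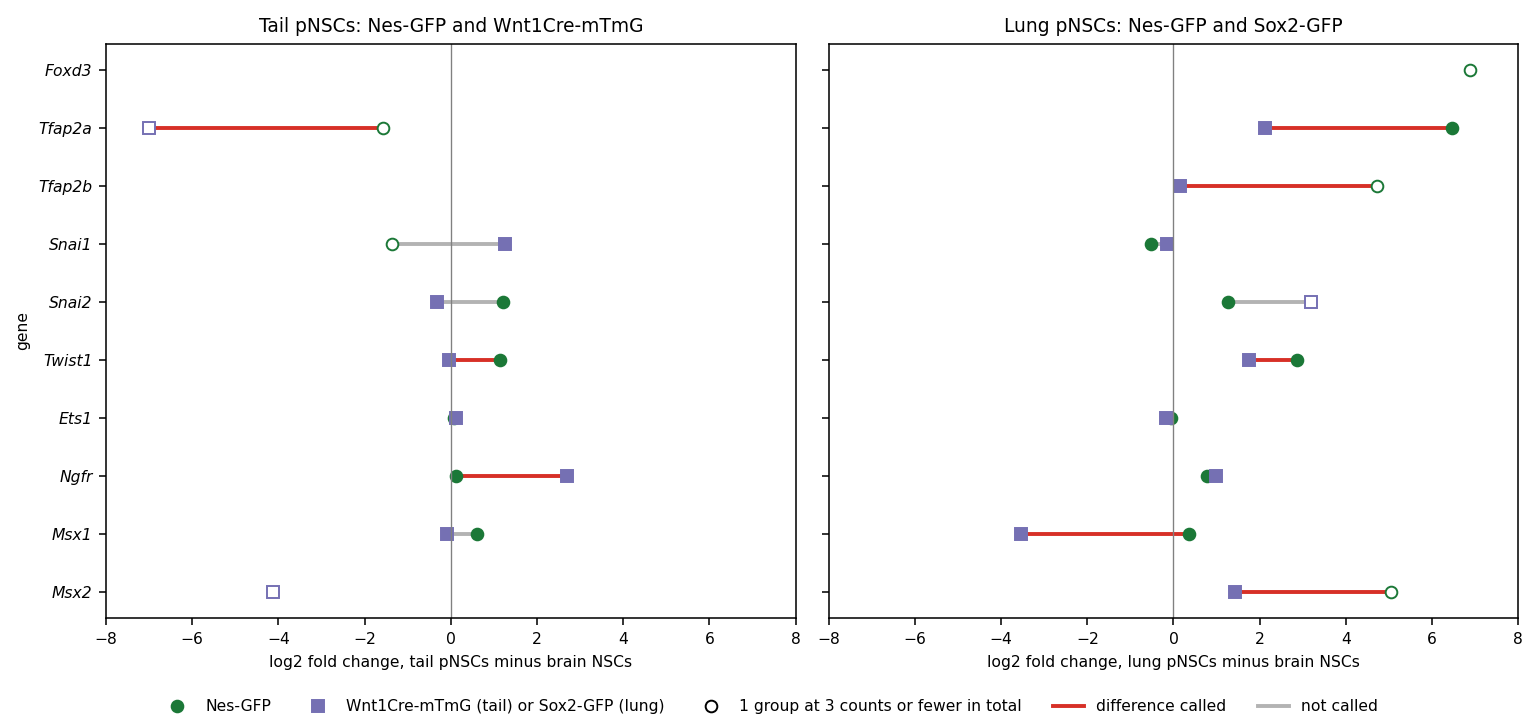
Log2 fold change of each gene in pNSCs minus brain NSCs (horizontal axis), for tail (left) and lung (right), with circles for the Nes-GFP and squares for the other experiment of that organ, joined by a red line where the interaction was called. Open symbols have 1 group at 3 counts or fewer in total, and pairs of groups without a library above 3 counts are not drawn; the circle and square of Msx1 in lung are 3.89 apart.

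The 11 group means of log2(cpm + 1) of each member were correlated with those of all genes with a mean count of at least 100. This is a description over groups that share experiments and brain lines. Pearson r was 0.98 for Foxd3 and Ngfr, 0.97 for Tfap2b and Msx2 and 0.96 for Snai1 and Snai2. These values, and those of the genes most like these 6, rest on few groups: DRG NCSCs were far above the others in Foxd3 and Ngfr (369 and 1212 cpm, with tail cells next at 5.48 and 25.5), the group next to tail cells was at 1.30 cpm in Tfap2b and 1.05 in Msx2, and only tail cells, lung cells and NCSCs were above 1 cpm in Snai1 and Snai2. Msx1 correlated with Foxd3 at -0.27 and with Ngfr at -0.17. Outside the members, Rasgef1c (0.987), Syt4 (0.986) and Insc (0.984) were most like Foxd3, and Insc (0.983), Syt4 (0.979) and Prph (0.977), a peripheral neuron filament, most like Ngfr. Tfap2b was most like Pkp1 (0.998), Col2a1 and Lrrc15, and Msx2 like Acan (0.991), Psors1c2 and Irx4. Anpep, Crip1 and Efemp1 came closest to Snai1 (0.999 to 0.996), Lgr6, Jun and Tmem45a to Snai2 (0.996 to 0.993), and Serinc3, Znfx1 and Nfkbie to Ets1 (0.979 to 0.967). The best values were lower for Tfap2a (Chadl, 0.866), Twist1 (Lonrf1, 0.858) and Msx1 (Bcl11a, 0.846).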

How the data were processed

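RNA-seq libraries from mouse cells were analysed from the table of gene counts that the authors deposited, in which each value is the whole number of reads assigned to a gene in a sample, not normalized. The submitters' processing notes name HISAT2, Cufflinks, HTSeq and the build GRCm38; the strand setting and the annotation release of the counting were not given in the sources used here. Samples were grouped by their labels. Low genes were removed by filterByExpr at a count of 10 and a total of 15, and the rest were scaled by TMM and tested with the quasi-likelihood test of edgeR 4.0.16 in R 4.3.3, with 1 fit per experiment and Benjamini-Hochberg adjustment over all genes of that fit, which was tested on simulated data. Levels are cpm with TMM factors over 28 libraries, at 9808246 to 22637031 counts each, and intervals cover counting error only. Alternatives were DESeq2 1.42.0, upper-quartile scaling, no filter, fits of only the groups compared, the replicate number as a block and leaving out each library. In each comparison all 10 genes were described, and of each list up to 4 called genes with the largest log2 fold changes and no overlap between groups could be named with values, and marker genes beside them. The 10 genes and all lists were chosen with earlier results of these data known. Gene positions follow GENCODE M21. E-box, AP-2, forkhead and homeodomain letters were searched on both strands. Some genes of the other lists are not reported here.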

Additional observations from a re-analysis of the deposited data

Results flagged for a closer look

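For 8 results, the difference between a pNSC line and its brain NSCs was not the same size in both experiments that derived pNSCs from the same organ, by an interaction term in edgeR over all 28 libraries. For tail, the effect in the Nes-GFP line minus that in the Wnt1Cre-mTmG line was -2.59 for Ngfr (adjusted p = 0.00061), 5.44 for Tfap2a (0.0218) and 1.17 for Twist1 (0.0478). For lung, the effect in the Nes-GFP line minus that in the Sox2-GFP line was 4.34 for Tfap2a (adjusted p = 1.04e-11), 3.89 for Msx1 (6.83e-13), 3.62 for Msx2 (0.0252), 4.58 for Tfap2b (0.0303) and 1.13 for Twist1 (0.0245). The tail value of Tfap2a and the lung values of Tfap2b and Msx2 rest on groups with 3 counts or fewer in total, so their size depends on the fit. For Tfap2a in lung, the lung lines were at 16.0 and 18.1 cpm and the brain lines at 0.173 and 4.18. For Msx1 in lung, all 3 Sox2-GFP lung pNSC libraries lay below their brain NSCs, while both Nes-GFP lung pNSC libraries lay slightly above theirs. The Nes-GFP difference was not called (0.34, edgeR adjusted p = 0.285). The lung lines were at 2.48 and 0.913 cpm and the brain lines at 1.94 and 10.8.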

How the results depend on the processing

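Of 84 member calls over the 14 comparisons, and counting only members that passed the filter, DESeq2 changed none, upper-quartile scaling lost 1, no filter lost 1 and gained 1, and the replicate block lost 1, each time Ngfr in the Sox2-GFP experiment. Fits of only the groups compared kept the 79 calls they covered and lost 5 whose gene then failed the filter, namely Tfap2b in the 3 comparisons that called it in Nes-GFP lung pNSCs, Tfap2a between the Wnt1Cre-mTmG tail and DRG pNSCs and Snai2 in Sox2-GFP lung pNSCs against brain NSCs. Between the lung lines, DESeq2 also called Foxd3 (6 members against 5), and the fit of only those groups did not cover Tfap2b (4 members). Without the filter, members it had left out were called too: Msx2 in NCSCs against brain NSCs (9 members called against 8), in Wnt1Cre-mTmG tail pNSCs against brain NSCs (3 against 2) and against DRG pNSCs (5 against 4), and Tfap2b in Sox2-GFP lung pNSCs against lung cells. With the replicate block, Ngfr in Sox2-GFP lung pNSCs against lung cells was -0.99 and 2 members differed between the tail lines. Equal numbers did not pair the libraries (correlations of -0.029 to 0.028 over 35 pairs). Leaving out 1 library called 0 members in Nes-GFP tail pNSCs against brain NSCs without tail replicate 1 or brain replicate 2 (1 with all), 4 in Wnt1Cre-mTmG tail pNSCs against brain NSCs without brain replicate 2 (2 with all, Msx2 then passing the filter), and 3 between the lung lines without Nes-GFP brain replicate 1 or 2, Nes-GFP lung replicate 1 or Sox2-GFP brain replicate 2 (5 with all). Only uncalled values changed sign, and their ranges over the fits without 1 library were as follows. Against brain NSCs, they were -0.33 to 0.71 for Ngfr in Nes-GFP tail pNSCs, -4.48 to 0.32 for Snai1 and -0.15 to 1.86 for Snai2 in Nes-GFP lung pNSCs, -0.40 to 0.0948 for Snai1 in Sox2-GFP lung pNSCs, -0.93 to 1.47 for Snai2 and -0.0987 to 0.0433 for Twist1 in Wnt1Cre-mTmG tail pNSCs, and -0.45 to 1.95 for Snai2 in DRG pNSCs. Between other groups, they were -3.97 to 3.12 for Snai1 and -0.66 to 1.36 for Snai2 in Nes-GFP tail against lung pNSCs, and -0.0947 to 0.0151 for Snai1 in tail against lung cells. Between experiments, they were -0.0723 to 0.0266 for Ets1 and -0.27 to 2.14 for Snai2 in tail, and -0.65 to 0.41 for Ngfr and -4.27 to 0.49 for Snai1 in lung. The cause was not tested. No pNSC or brain NSC library had more than 22 counts of Foxd3 or Msx2, 13 of Snai1, 10 of Snai2 or 5 of Tfap2b, which limits the differences of these genes that can be detected between those lines.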
